A study of Mus musculus with 17 samples.

Results

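The comparison described here set 3 RNA-seq libraries titled PD1_Fc against 3 titled Ctrl_Fc, chosen by title, which makes 6 of the 17 samples in the series. All 6 were labelled as splenic T cells of WT mice stimulated with antibodies to CD3 and CD28, the receptor signals that start T cell activation and division. The PD1_Fc cultures also received PD-1 Fc at 2.5 ug/ml, and the Ctrl_Fc cultures a control IgG Fc at the same dose. Activation was read at 72 h, and the labels do not say at what time RNA was taken. Nothing in them gives separate animals or cultures for the libraries of a group, so p-values measure the spread between these libraries, which may be technical. The treatment field of 1 library, PD1_Fc_3, names PDL1 Fc in place of PD1 Fc, and the title was followed.

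PD-1 is an inhibitory receptor of activated T cells, and its ligand PD-L1, encoded by Cd274, is carried by tumour cells, myeloid cells and T cells themselves. A PD-1 Fc protein joins the outer part of PD-1 to an antibody tail, so that it can bind PD-L1 on a T cell from outside. The title of the series places the question there, in what engagement of PD-L1 does to the T cell that carries it. Type I interferons signal through JAK kinases to a transcription factor complex that includes STAT2 and IRF9, which binds short elements rich in GAAA and turns on antiviral genes such as Mx1 and Ddx60.

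Depth was 3473884 to 4662029 gene counts in the Ctrl_Fc libraries and 4364803 to 5006301 in the PD1_Fc libraries. Reads entered as not aligned made up 80.1% to 80.4% of the Ctrl_Fc reads and 79.9% to 80.3% of the PD1_Fc reads. The other 6 bulk libraries of the series, titled Control and PDL1_Fc, had 8.95% to 11.2%. Pseudogenes took 9.85% to 10.1% of the gene counts in these 6 libraries and 0.179% to 0.186% in the other set. The 20 T cell markers summed to 1843 to 2075 counts per 1000000 gene counts (CPM) in Ctrl_Fc and 1815 to 1893 CPM in PD1_Fc, against 31.02 to 34.97 CPM in the other set, while Cd3d and Cd8b1, which encode parts of the CD3 complex and of the CD8 co-receptor, had no count in any of the 6. A count of 0 allows up to 0.25 CPM in the pooled Ctrl_Fc libraries and 0.211 CPM in the pooled PD1_Fc libraries, from 3 counts and for counting error only. Every value below is therefore a value of the minority of reads that aligned, and whether those reads come from mouse T cells, from another species or from another kind of library was not tested. That doubt touches the meaning of every gene value given here. The same libraries held Cd3e at 229 to 267 CPM and Lck at 463 to 507 CPM, and no count of Pdcd1. Macrophage markers, 14 in all, summed to 59.5 to 236.6 CPM in Ctrl_Fc and 64.6 to 229.5 CPM in PD1_Fc, the high ends being Ctrl_Fc_3 and PD1_Fc_1, against 33020 to 42020 CPM in the other set. The neutrophil and the erythroid and platelet markers each summed to under 2 CPM in every one of the 6.

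Of 10682 genes tested with edgeR's quasi-likelihood test, 27 passed an adjusted p of 0.05, which is 0.253%. They divide into 6 higher in PD1_Fc (0.0562%) and 21 lower (0.197%), and in all 27 the groups did not overlap. The changes were modest, from 0.23 to 0.97 on the log2 scale for the higher genes and from -1.16 to -0.26 for the lower ones. Of the 21 lower genes 8 are annotated as pseudogenes, not counting Mx2. The annotation enters Mx2 as a polymorphic pseudogene, and it is counted here among the named genes. Of the 10682 genes tested, 1454 are annotated as a kind of pseudogene, Mx2 included. At an unadjusted p under 0.05 there were 869 genes (8.14%), 399 higher (3.74%) and 470 lower (4.4%). Genes whose higher group had a mean of at least 5 CPM numbered 9322, and their median log2 change was 0.001. Of these 50.3% were higher and 49.7% lower, 4.05% were higher and 4.81% lower at an unadjusted p under 0.05, and the groups did not overlap in 7.05% on the higher side and 7.19% on the lower. The calls depended on single libraries. Leaving out Ctrl_Fc_1 left 4 calls, leaving out Ctrl_Fc_2 left 16, and leaving out Ctrl_Fc_3 gave 138. Without PD1_Fc_1 there were 6, without PD1_Fc_2 there were 2, and without PD1_Fc_3, the library with the conflicting treatment field, there were 9. DESeq2 called 7 of the 3402 genes to which it gave an adjusted p (0.206%), and all 7 are among the 27.

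**Figure D1:**
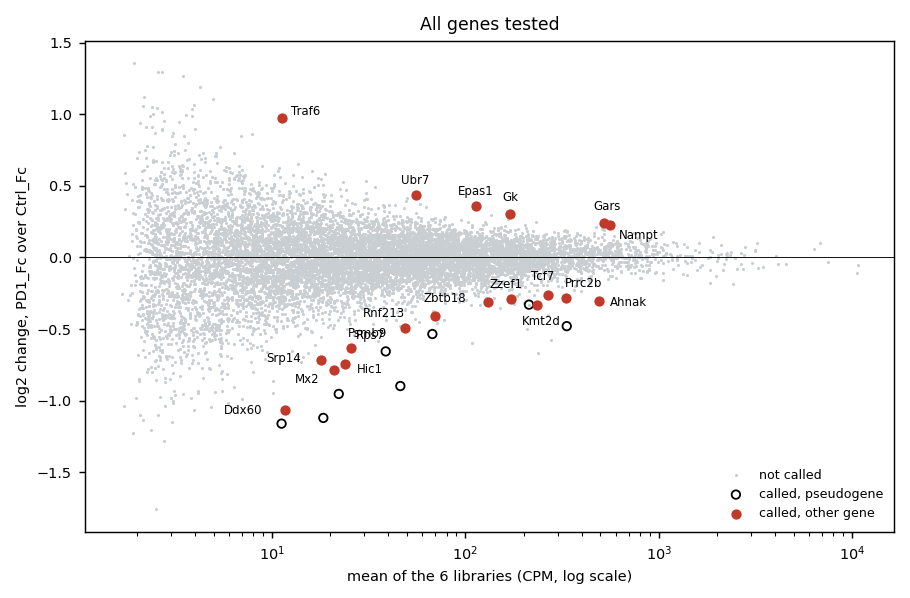
Log2 change of each gene tested, PD1_Fc over Ctrl_Fc, against its mean level over the 6 libraries in CPM on a log axis. Grey points are the genes that did not pass, red points the 19 named genes past an edgeR adjusted p of 0.05, and open circles the 8 pseudogenes past it. Mx2, entered as a polymorphic pseudogene, is among the red points. Traf6 is the highest of the red points at 0.97 and Ddx60 the lowest at -1.07, while grey points of low level reach further both ways.

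The receptor and ligands themselves were nearly out of reach. Cd274, which encodes PD-L1, had 13 counts in all in Ctrl_Fc, at 1.15, 0.257 and 1.72 CPM by library, and 23 in PD1_Fc, at 3.08, 1.604 and 0.200 CPM, too few for the filter, so it was not tested. Pdcd1, which encodes PD-1, had no count in any of the 6. Cd80, which encodes a second partner of PD-L1, and Pdcd1lg2, which encodes the second PD-1 ligand, were at or under 1.40 CPM in each library and were not tested either. Cd28, the costimulatory receptor engaged in these cultures, was at 2.01, 2.57 and 3.00 CPM in Ctrl_Fc and 5.34, 5.27 and 5.59 CPM in PD1_Fc. Those groups do not overlap, yet the log2 difference of 1.07 ± 0.35 (SE) did not pass (edgeR adjusted p = 0.277), and Cd28 reached 5 CPM only through PD1_Fc. Ctla4, an inhibitory receptor that shares ligands with CD28, lay at 67.2 to 74.3 CPM in Ctrl_Fc and 81.6 to 87.1 CPM in PD1_Fc (log2 difference 0.27, edgeR adjusted p = 0.313). Ptpn6, which encodes the phosphatase SHP-1, differed by -0.12 and did not pass either.

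Type I interferon genes were lower in PD1_Fc. Of the 37 genes on the list, 25 were tested and 19 reached 5 CPM in at least 1 group. Of those 19, 17 were lower, against 49.7% of all genes at that level, and their median log2 difference was -0.41, against 0.001. In 9 of the 19 the groups did not overlap, all of them lower in PD1_Fc (47.4%, against 7.19% of all genes). Ddx60, Mx2 and Rnf213 fell, 3 of 19 against 0.197% of all genes, and the other 16 did not pass. Because the list was written with results of these data known, its counts are a description. Among tested members under 5 CPM, Dhx58 differed by -0.40. Oas2, Oasl1 and Ifit2 lay within 0.04 of no difference, and Herc6 was higher by 0.18. Of the 37 genes, 12 had too few counts to test.

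Ddx60, which encodes a helicase of the antiviral response on chromosome 8 (GRCm38, 61928087 to 62038244), was at 16.98, 15.96 and 14.59 CPM in Ctrl_Fc and 5.75, 7.79 and 8.99 CPM in PD1_Fc. Its mean went from 15.84 ± 1.203 to 7.51 ± 1.64 CPM (SD, n = 3 each), on 28 to 68 reads per library. Each PD1_Fc library is below each Ctrl_Fc library. The log2 change was -1.07 ± 0.21 (SE), 0.477 times the control level, with an edgeR adjusted p of 0.00603. The call was lost without Ctrl_Fc_1 (0.0751), PD1_Fc_1 (0.161) or PD1_Fc_2 (0.0691). Its promoter is shown because Ddx60 had the largest fall among named genes and its window holds 2 matches to the pattern GAAANNGAAA, the core of the interferon-stimulated response element. The 250 bases before its start, chr8:61927837-61928086 on the plus strand, read as follows in RefSeq (GRCm38.p6), with the matches in capitals.

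Ddx60 promoter: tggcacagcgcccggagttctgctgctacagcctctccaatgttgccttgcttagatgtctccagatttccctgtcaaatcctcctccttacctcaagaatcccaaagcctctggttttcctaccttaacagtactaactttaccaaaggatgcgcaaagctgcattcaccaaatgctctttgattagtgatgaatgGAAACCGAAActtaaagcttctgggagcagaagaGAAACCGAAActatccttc

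Both matches are GAAACCGAAA and begin 53 and 19 bases before the start. Read on either strand and counting overlapping matches, the pattern was found in 2.98% of 32851 RefSeq windows of this length and in 3.01% of 6374 genes at 5 CPM or more. Of the 15 type I interferon members at that level with a window, 6 hold it (40%: Bst2, Ddx60, Isg15, Oas3, Rsad2 and Stat2). Mx1, Mx2, Parp9 and Parp14 have no entry in the table. Of these 6, Ddx60, Oas3, Isg15, Rsad2 and Stat2 were lower, with log2 differences of -1.07, -0.62, -0.45, -0.42 and -0.19, and Bst2 was higher by 0.16. Ddx60 was the only one of them to pass. The pattern is not particular to this list. Of 17 members of the interferon gamma list at that level with a window, 5 hold it (29.4%: Gbp2, Gbp3, Gbp5, Gbp7 and Socs1). Their log2 differences ran from -0.20 (Socs1) to -0.002 (Gbp5), and none passed.

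Mx2, one of a pair of dynamin-like antiviral GTPases on chromosome 16 (97535308 to 97560900), was at 27.6, 25.7 and 26.4 CPM in Ctrl_Fc and 18.7, 13.8 and 13.6 CPM in PD1_Fc. The groups are well apart, with a log2 change of -0.79 ± 0.16 (SE) and an edgeR adjusted p of 0.00603. Its call was lost without Ctrl_Fc_1 (0.0751), PD1_Fc_2 (0.124) or PD1_Fc_3 (0.117). The annotation enters Mx2 as a polymorphic pseudogene, which in some strains does not encode a whole protein. Its neighbour Mx1 (97447035 to 97462907) was at 15.8, 16.2 and 20.6 CPM and at 9.86, 10.08 and 11.98 CPM, again without overlap, but its log2 difference of -0.73 missed the threshold (edgeR adjusted p = 0.0765). The Mx genes are near copies, so the split of reads between them is uncertain. Rnf213, which encodes a very large ubiquitin ligase induced by interferon, was at 71.1, 90.6 and 76.2 CPM and at 56.5, 57.3 and 65.7 CPM. Its log2 change was -0.41 ± 0.10 (SE), and its edgeR adjusted p of 0.04996 lies at the threshold. Rnf213 passed in 1 of the 6 omissions, that of Ctrl_Fc_3 (0.0194), and without another library its adjusted p was 0.0751 (Ctrl_Fc_1), 0.376 (Ctrl_Fc_2), 0.551 (PD1_Fc_1), 0.382 (PD1_Fc_2) and 0.0795 (PD1_Fc_3).

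Members that did not pass were of more than 1 kind. Irf9, the DNA-binding part of the interferon complex, was at 28.5, 30.6 and 28.3 CPM in Ctrl_Fc and 21.16, 23.37 and 18.98 CPM in PD1_Fc (log2 difference -0.46, edgeR adjusted p = 0.214). Ifih1, which encodes the RNA sensor MDA5, was at 38.6 to 53.2 CPM and at 29.1 to 35.6 CPM (-0.44, 0.158). Parp9, Samd9l and Ifi35 also had groups that did not overlap, with log2 differences of -0.60, -0.30 and -0.30. Oas3, Parp14, Adar, Isg20, Stat2 and Ifi44 were lower too, but with overlapping groups. Their log2 differences were -0.62, -0.33, -0.19, -0.19, -0.19 and -0.17. Isg15, a ubiquitin-like protein, behaved otherwise, at 2.30, 3.86 and 15.01 CPM in Ctrl_Fc and 10.9, 2.52 and 2.80 CPM in PD1_Fc. Its high libraries are Ctrl_Fc_3 and PD1_Fc_1, 1 in each group, and the same 2 were the highest for Rsad2, Irf7 and Bst2. They are also the libraries with most macrophage marker counts. Lyz2, a macrophage gene, stood there at 0.605% and 0.586% of its level in the other bulk set, and at 0.131% to 0.174% in the remaining 4 libraries. Scaling each gene's level in the other set by that highest share gives under 25% of the observed level for 15 of the 19 members. All 15 were lower, 9 without overlap, with a median of -0.41. For the other 4, Isg15, Rsad2, Irf7 and Bst2, the median was -0.19. The scaling rests on Lyz2 alone and takes the other set as the profile of any macrophage RNA. Whether macrophage RNA has a part in these differences was not tested. With both libraries left out the median of the 19 was -0.30, and over single omissions it ran from -0.47 to -0.30.

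**Figure D2:**
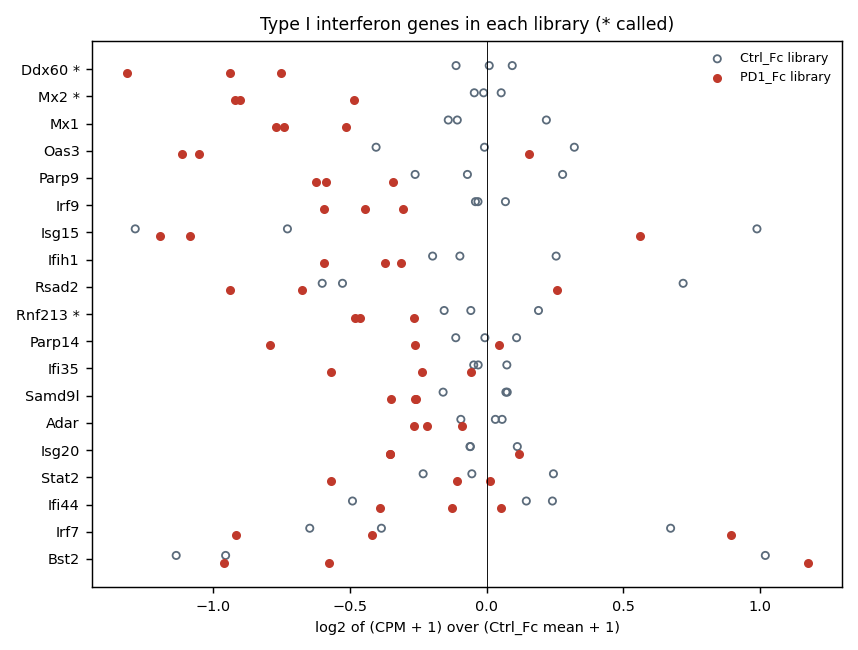
Each type I interferon gene with at least 5 CPM in the higher group, as log2 of CPM plus 1 in each library relative to the Ctrl_Fc mean plus 1 (open circles Ctrl_Fc, filled circles PD1_Fc, 3 libraries each; an asterisk marks an edgeR adjusted p under 0.05). The groups separate for Ddx60, Mx2, Mx1 and 6 others, whereas Isg15, Rsad2, Irf7 and Bst2 have 1 high library in each group. In Oas3, Parp14, Adar, Isg20, Stat2 and Ifi44 the groups overlap.

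Interferon gamma acts on a partly separate set that includes the antigen presentation genes. Of 31 genes on that list 23 were tested and 21 reached 5 CPM. Of those, 16 were lower, and their median was -0.12. Psmb9 fell, 1 of 21 against 0.197% of all genes, and 3 of 21 were lower without overlap (14.3%, against 7.19%). Socs1 and Socs3, feedback inhibitors of JAK kinases, were lower by 0.20 and 0.21 without passing (edgeR adjusted p = 0.604 and 0.612). The transcription factor Irf1 differed by -0.10 and the GTPase Gbp2 by -0.14, within the spread of the libraries. In the fit on all 12 bulk libraries the median of all genes is 0.066 in place of 0.001, and small list medians below 0 can take the other sign there. Relative to the median of all genes, this list lay at -0.12 in both fits and the type I list at -0.41, and none of the 49 lists with at least 4 members at 5 CPM moved by more than 0.006. Both fits take each log2 change from the same 6 libraries. Such closeness, here and for the lists below, follows from the design and is no separate test.

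On the MHC class I list all 17 genes were tested and had at least 5 CPM, 12 were lower, and 6 were lower without overlap (35.3%, against 7.19%). The median was -0.12. This list shares members with the interferon gamma list. Psmb9, Psme1 and Tap1, the 3 genes lower without overlap there, are among the 6 here and are counted again. Psmb9, which encodes an inducible catalytic subunit of the immunoproteasome on chromosome 17 (34181987 to 34187764), was at 26.5, 36.3 and 31.1 CPM in Ctrl_Fc and 23.01, 19.02 and 18.58 CPM in PD1_Fc. The lowest Ctrl_Fc library lies just above the highest PD1_Fc library. Its log2 change was -0.63 ± 0.14 (SE), with an edgeR adjusted p of 0.0312. That call held in 1 of 6 omissions, without Ctrl_Fc_3 (0.0257), and was lost without Ctrl_Fc_1 (0.0565), Ctrl_Fc_2 (0.247), PD1_Fc_1 (0.0887), PD1_Fc_2 (0.312) or PD1_Fc_3 (0.253). Tap1, its neighbour (34187553 to 34197225), encodes part of the peptide transporter. It was at 163.5, 154.2 and 143.9 CPM and at 117.1, 134.9 and 126.8 CPM, also without overlap, and missed the threshold at a log2 difference of -0.28 (edgeR adjusted p = 0.0897). RefSeq gives the starts of Psmb9 and Tap1 226 bases apart on opposite strands, so that they share the stretch between them, and the annotated genes overlap at their ends, where reads cannot be told apart without strand. The 250 bases before the Psmb9 start, chr17:34187331-34187580 on the minus strand (GRCm38.p6), are given because they also hold the start of Tap1. They have no match to GAAANNGAAA.

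Psmb9 promoter: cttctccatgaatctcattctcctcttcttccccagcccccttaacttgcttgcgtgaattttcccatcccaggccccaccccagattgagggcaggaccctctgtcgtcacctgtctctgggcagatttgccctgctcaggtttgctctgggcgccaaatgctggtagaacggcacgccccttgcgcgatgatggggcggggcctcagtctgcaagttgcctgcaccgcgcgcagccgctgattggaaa

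Among the classical class I genes, H2-K1 was at 873, 839 and 818 CPM in Ctrl_Fc and 746, 732 and 817 CPM in PD1_Fc, a log2 difference of -0.14 that did not pass (edgeR adjusted p = 0.384). The nonclassical H2-T23 differed by -0.32 (0.521). B2m, the light chain of every class I molecule, was at 14.4, 13.6 and 83.2 CPM and at 74.79, 16.04 and 22.17 CPM, with its high libraries again Ctrl_Fc_3 and PD1_Fc_1. Psmb8 and Psmb10, the other inducible subunits, differed by -0.08 and -0.18. Canx, a chaperone of class I assembly, was higher by 0.18 and did not pass (edgeR adjusted p = 0.157). MHC class II genes were lower in 7 of 9, their median -0.10, and none passed. With Ctrl_Fc_3 and PD1_Fc_1 left out together that median was -0.01. H2-Aa was at 14.4 to 18.9 CPM and at 9.59 to 13.4 CPM, and the B cell markers, of which Ighd, Cr2 and Fcer2a had no count, summed to 51.9 to 55.0 CPM in Ctrl_Fc and 38.95 to 46.74 CPM in PD1_Fc. Pax5, the B cell transcription factor, was at 10.1, 8.75 and 9.01 CPM and at 4.52, 5.04 and 4.39 CPM (log2 difference -0.99, edgeR adjusted p = 0.0897). Only 3 of the 13 B cell markers reached 5 CPM, all lower, and none passed. Of these Ighm differed by -0.14. Under 5 CPM, Blk and Ebf1 differed by -0.57 and -0.13 and Cd79b by 0.38. Whether B cell numbers differed was not tested. Fewer B cells and less RNA per cell cannot be told apart in bulk libraries, and their part in the class II values was not tested.

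Traf6 rose more than any other called gene. It encodes a ubiquitin ligase that carries signals from Toll-like, interleukin-1 and TNF-family receptors to NF-kB, on chromosome 2 (101678429 to 101701669). Its levels were 6.04, 6.95 and 9.65 CPM in Ctrl_Fc and 13.8, 14.2 and 17.2 CPM in PD1_Fc, from 21 to 86 reads per library. The log2 change was 0.97 ± 0.21 (SE), 1.96-fold, with an edgeR adjusted p of 0.0216. The call held without Ctrl_Fc_3 (0.00335) and was lost without Ctrl_Fc_1 (0.207), Ctrl_Fc_2 (0.103), PD1_Fc_1 (0.0909), PD1_Fc_2 (0.0775) or PD1_Fc_3 (0.253). No other gene of its pathway list passed. Of the 36 genes of the Toll-like receptor and TNF list at 5 CPM or more, 22 were lower, and their median was -0.04, also relative to all genes in the fit on all 12 libraries. Irak4, a kinase upstream of Traf6, was at 5.76, 7.98 and 6.22 CPM in Ctrl_Fc and 1.849, 4.582 and 3.995 CPM in PD1_Fc. That difference of -0.94 did not pass (edgeR adjusted p = 0.320), and Irak4 reached 5 CPM only through Ctrl_Fc. Tab1, part of the kinase complex that Traf6 activates, differed by -0.39 (0.402). Irak1 and Tnfaip3 went the other way, each higher by 0.16 without overlap and not passing. Across the list the groups did not overlap for 3 higher genes (8.33%, against 7.05% of all genes) and 6 lower ones (16.7%, against 7.19%). Nfkbia, the inhibitor that NF-kB itself induces, stood at 536 to 646 CPM and at 516 to 552 CPM, with overlapping groups.

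**Figure D3:**
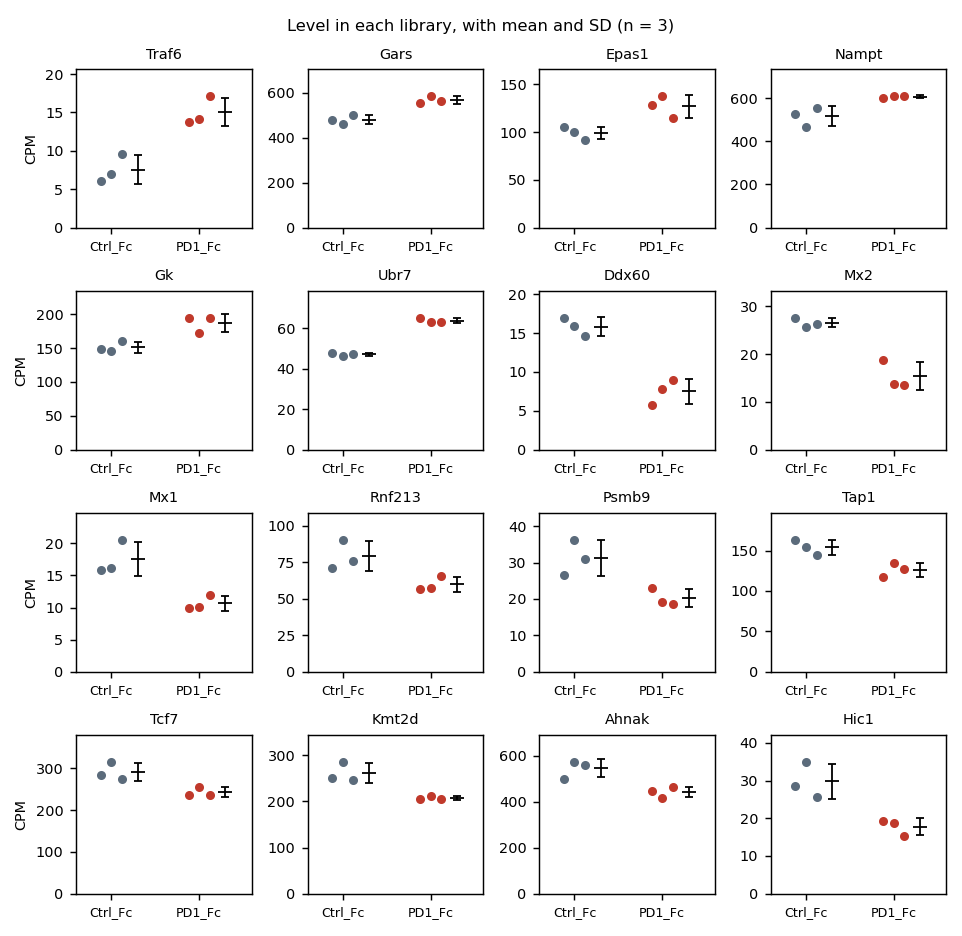
Level in CPM of 16 genes in each of the 3 Ctrl_Fc (grey) and 3 PD1_Fc (red) libraries, with the mean and SD of each group beside the points, every axis starting at 0. All 16 have groups that do not overlap. All but Mx1 and Tap1 passed an edgeR adjusted p of 0.05, and Traf6 and Ddx60 show the widest separation relative to their level.

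Antigen receptor signalling genes showed little. All 25 on the list were tested at 5 CPM or more. Of them 20 were lower, with a median of -0.07 (also -0.07 relative to all genes in the fit on all 12 libraries), and none passed. Lck, the kinase that starts the cascade, was at 479 to 507 CPM and 463 to 484 CPM, and Cd3e, a subunit of the CD3 complex, at 241 to 267 CPM and 229 to 262 CPM. The adaptor Lcp2 differed by -0.16 and the transcription factor Nfatc2 by -0.22, neither passing. Among early response genes Egr2 was at 99.9, 113 and 110 CPM in Ctrl_Fc and 88.6, 88.7 and 84.9 CPM in PD1_Fc, without overlap (log2 difference -0.30, edgeR adjusted p = 0.112). Egr2 takes part in T cell anergy, a state of poor response, and 9 of 15 genes of the anergy list were lower. Their median was -0.05. Myc, a driver of growth after activation, was at 214 to 248 CPM and 206 to 234 CPM.

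Of the genes that set T cell states, Tcf7 fell. It encodes TCF-1, a factor of naive and memory cells, and was at 283, 316 and 274 CPM in Ctrl_Fc and 237, 256 and 236 CPM in PD1_Fc. That is a log2 change of -0.26 ± 0.06 (SE), 0.835 times the control level, with an edgeR adjusted p of 0.0478. It passed without Ctrl_Fc_3 (0.00379), and not without Ctrl_Fc_1 (0.187), Ctrl_Fc_2 (0.211), PD1_Fc_1 (0.540), PD1_Fc_2 (0.124) or PD1_Fc_3 (0.362). The naive and memory list had 17 members at 5 CPM, of which 11 were lower and 6 lower without overlap (35.3%, against 7.19%), with a median of -0.03. Ccr7, the receptor that guides naive cells to lymph nodes, was at 410 to 422 CPM and at 355 to 384 CPM (log2 difference -0.17, edgeR adjusted p = 0.301). Satb1, a chromatin organiser of T cells, was higher by 0.13 without overlap and did not pass (0.401).

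Helper-cell genes gave no call. Tbx21, the Th1 master factor, was at 76.9, 89.6 and 81.5 CPM in Ctrl_Fc and 67.2, 71.7 and 67.7 CPM in PD1_Fc (log2 difference -0.27, edgeR adjusted p = 0.322), and each of the 6 Th1 genes at or above 5 CPM was lower (median -0.10). Gata3, the Th2 factor, was at 63.1 to 70.3 CPM and 64.7 to 71.9 CPM, and Foxp3, the regulatory T cell factor, at 7.72 to 11.8 CPM and 7.33 to 10.1 CPM. The groups did not overlap for Tbx21 and overlapped for Gata3 and Foxp3. Gzmb, a granzyme of cytotoxic cells, was at 21.3 to 27.5 CPM and 18.70 to 21.97 CPM (-0.32, edgeR adjusted p = 0.584). The inhibitory receptor gene Lag3 lay at 73.4 to 78.1 CPM and 56.9 to 74.7 CPM, with overlap.

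Mitotic genes leaned the other way. Of 27 G2 and mitosis genes at 5 CPM, 25 were higher in PD1_Fc, with a median of 0.12 that ran from 0.10 to 0.18 over single omissions, but none passed and only 2 had groups that did not overlap (7.41%, against 7.05% of all genes). Ccna2, the cyclin of S phase and G2, was at 150, 134 and 160 CPM in Ctrl_Fc and 179, 183 and 157 CPM in PD1_Fc (log2 difference 0.22, edgeR adjusted p = 0.306). Cenpe, a motor of chromosome alignment, differed by 0.50 (0.318). Mki67, a general marker of dividing cells, was at 8.37 to 13.5 CPM and 11.7 to 12.2 CPM. In the S phase list 18 of 30 were higher with a median of 0.04, and 6 were higher without overlap (20%, against 7.05%). Mcm6, a subunit of the replicative helicase, was the clearest, at 707, 677 and 728 CPM and 798, 806 and 774 CPM (0.17, edgeR adjusted p = 0.184).

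Among genes of protein synthesis and breakdown Gars rose, and Psmb9, Rps7 and Srp14 fell. Gars, which charges the glycine tRNA, rose from 480, 462 and 500.0 CPM to 556, 587 and 562 CPM, a log2 change of 0.24 ± 0.05 (SE) with an edgeR adjusted p of 0.0216 that DESeq2 also gave below threshold (0.0105). It passed without Ctrl_Fc_2 (0.0219) or Ctrl_Fc_3 (0.00213), and not without Ctrl_Fc_1 (0.187), PD1_Fc_1 (0.128), PD1_Fc_2 (0.356) or PD1_Fc_3 (0.156). All 20 cytosolic tRNA synthetase genes were at 5 CPM or more and 16 were higher, with a median of 0.06. Eprs and Sars differed by 0.18 and 0.13 without overlap and did not pass. Of 24 proteasome genes 20 were higher, 8 without overlap (33.3%, against 7.05%), with a median of 0.07 and no call. These constitutive subunits include Psmd14, at 392.4, 329.2 and 395.1 CPM in Ctrl_Fc and 425, 422 and 396 CPM in PD1_Fc (0.15, edgeR adjusted p = 0.437). Psmb9 of the inducible proteasome was lower in the same libraries.

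Rps7, a protein of the small ribosomal subunit, fell from 60.2, 63.6 and 47.8 CPM to 40.48, 35.05 and 45.34 CPM (log2 change -0.49 ± 0.12 SE, edgeR adjusted p = 0.0438). Its call held without Ctrl_Fc_3 (0.00145) and was lost without Ctrl_Fc_1 (0.312), Ctrl_Fc_2 (0.265), PD1_Fc_1 (0.314), PD1_Fc_2 (0.411) or PD1_Fc_3 (0.0517). Lower values were seen in 17 of the 25 cytosolic ribosomal protein genes that reached 5 CPM, and the list's median was -0.06. Ribosomal protein genes have many pseudogene copies, so the split of reads between gene and copies is uncertain in these libraries. Srp14, a protein of the signal recognition particle, fell from 18.1, 25.5 and 23.2 CPM to 12.3, 11.2 and 17.0 CPM (-0.72, edgeR adjusted p = 0.04996). Srp14 passed in 1 omission, that of PD1_Fc_3 (0.0316), and its adjusted p was 0.0724 without Ctrl_Fc_1, 0.295 without Ctrl_Fc_2, 0.0581 without Ctrl_Fc_3, 0.531 without PD1_Fc_1 and 0.411 without PD1_Fc_2.

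Stress genes were mixed. Among chaperones, 7 of 17 were higher without overlap (41.2%, against 7.05%) and 2 lower without overlap, with a median of 0.06 and no call. Dnaja1 was at 46.6, 47.1 and 57.1 CPM and 57.5, 59.8 and 62.3 CPM (0.24, edgeR adjusted p = 0.521), whereas Hspa1b, the inducible HSP70, was lower at 55.0 to 64.8 CPM against 47.6 to 55.7 CPM (-0.28, 0.408). Of 25 targets of ATF4, the factor of amino acid shortage, 16 were higher with a median of 0.04 and none passed. Psat1, an enzyme of serine synthesis, was at 21.9, 28.1 and 27.7 CPM and 35.1, 36.2 and 35.4 CPM, without overlap (0.45, edgeR adjusted p = 0.176). Asns, asparagine synthetase, differed by 0.23 (0.311), and Atf5, a factor of the same response, by -0.34 (0.451). Vegfa, a target of hypoxia factors, was at 8.92, 10.5 and 18.2 CPM and 26.5, 15.8 and 16.4 CPM, with overlap.

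Epas1, which encodes the hypoxia factor HIF-2alpha, rose from 105, 99.9 and 92.0 CPM to 128, 138 and 115 CPM, a log2 change of 0.36 ± 0.08 (SE) with an edgeR adjusted p of 0.0274. It passed without Ctrl_Fc_2 (0.0275) or PD1_Fc_3 (0.0316), and not without Ctrl_Fc_1 (0.0751), Ctrl_Fc_3 (0.0527), PD1_Fc_1 (0.257) or PD1_Fc_2 (0.411). Nampt, the enzyme that recycles nicotinamide into NAD, rose from 526, 466 and 556 CPM to 598, 611 and 608 CPM (log2 change 0.23, edgeR adjusted p = 0.0478). Gk, glycerol kinase, rose from 148, 145 and 161 CPM to 195, 172 and 194 CPM (0.31, edgeR adjusted p = 0.0298). Ubr7, of a family of ubiquitin ligases, rose from 47.5, 46.1 and 47.4 CPM to 65.1, 63.0 and 62.9 CPM (0.44, edgeR adjusted p = 0.0383). In each of these 3 the call held in the omission of Ctrl_Fc_3 alone, at 0.00108 for Nampt, 0.00374 for Gk and 0.0237 for Ubr7. Without Ctrl_Fc_1, Ctrl_Fc_2, PD1_Fc_1, PD1_Fc_2 and PD1_Fc_3 in turn, the adjusted p was 0.203, 0.189, 0.285, 0.356 and 0.266 for Nampt. In the same order it was 0.252, 0.0578, 0.431, 0.0691 and 0.273 for Gk, and 0.181, 0.0825, 0.285, 0.228 and 0.160 for Ubr7. Just short of the threshold on the higher side were S100a10, Tmem138 and Mitd1, with log2 differences of 0.30, 0.49 and 0.42 and edgeR adjusted p of 0.0765, 0.0765 and 0.0897.

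On the lower side, Ahnak and Kmt2d had the smallest edgeR adjusted p of the named genes. Ahnak, a very large scaffold protein, fell from 499.7, 573.8 and 561.3 CPM to 445.9, 416.3 and 462.0 CPM (log2 change -0.30 ± 0.06 SE, edgeR adjusted p = 0.00425). Its call was lost without PD1_Fc_1 (0.0638) or PD1_Fc_2 (0.126). Kmt2d, a methyltransferase of histone H3 lysine at enhancers, fell from 250.2, 286.5 and 247.3 CPM to 204.6, 212.2 and 204.5 CPM (-0.34 ± 0.06 SE, 0.00525), and its call was lost without PD1_Fc_1 (0.115), PD1_Fc_2 (0.0691) or PD1_Fc_3 (0.0766). Kmt2d was the only call among 22 chromatin regulators, against 0.197% of all genes called lower, and their median was -0.01. Prrc2b, a proline-rich protein, changed by -0.28 (edgeR adjusted p = 0.00989), and was lost without Ctrl_Fc_1 (0.232), PD1_Fc_1 (0.481) or PD1_Fc_2 (0.0775). DESeq2 also called Ahnak (0.00323), Kmt2d (0.0105) and Prrc2b (0.0199). In the fit on all 12 bulk libraries none of them passed (0.919, 0.902 and 0.926).

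Hic1, a zinc-finger repressor, fell from 28.50, 35.01 and 25.74 CPM to 19.3, 18.8 and 15.2 CPM (log2 change -0.74, edgeR adjusted p = 0.00832). Zbtb18, another zinc-finger repressor, changed by -0.31 and Zzef1 by -0.29 (edgeR adjusted p = 0.0438 each). These 3 genes kept their calls in 1 omission each, that of Ctrl_Fc_3 (0.00145, 0.0169 and 0.0265). Without Ctrl_Fc_1, Ctrl_Fc_2, PD1_Fc_1, PD1_Fc_2 and PD1_Fc_3 in turn, the adjusted p was 0.0724, 0.163, 0.0638, 0.0691 and 0.160 for Hic1. It was 0.187, 0.103, 0.285, 0.312 and 0.253 for Zbtb18, and 0.0751, 0.180, 0.285, 0.382 and 0.173 for Zzef1. In the fit on all 12 libraries Traf6 (0.0144), Ddx60 (0.0179) and Mx2 (0.0414) were among the 5 of the 27 genes that still passed.

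**Figure D4:**
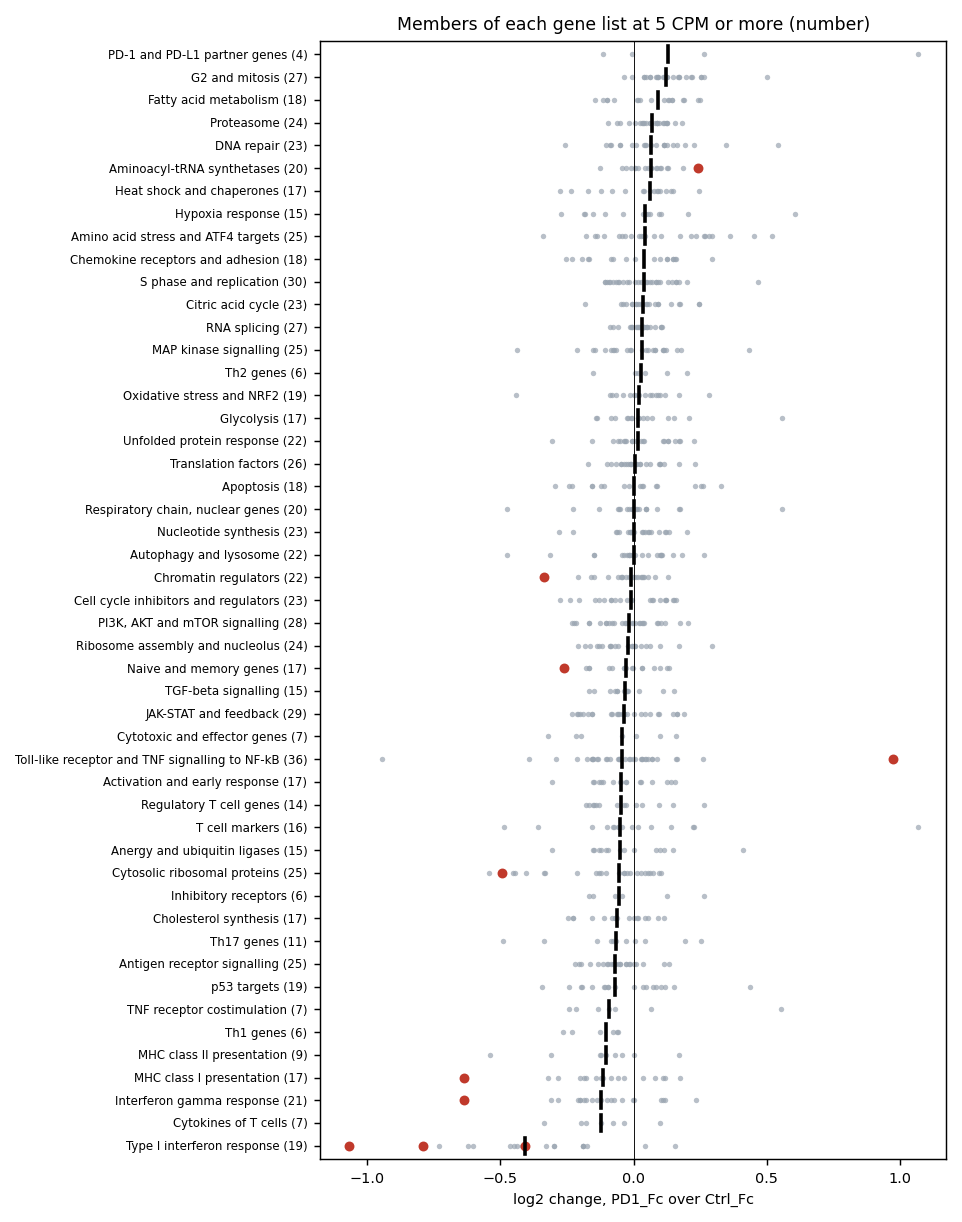
Log2 change, PD1_Fc over Ctrl_Fc, of the members of each gene list with at least 5 CPM in the higher group (their number in brackets; grey points did not pass, red points passed an edgeR adjusted p of 0.05), for the lists with 4 or more such members. The black bar is the median. The type I interferon list lies apart at a median of -0.41, and the medians of the other lists shown lie between -0.12 and 0.13.

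Changes leaned with the base composition of the transcript. Across 9079 genes Spearman's rho between GC content and log2 change was -0.278, over genes of the same libraries and so a description. In 5 equal bins of genes from least to most GC, the median log2 change went 0.051, 0.027, 0.004, -0.022 and -0.074. Ctrl_Fc_2 stood out among the 6, with a median deviation of -0.109 in the bin with least GC and 0.124 in the bin with most. With offsets that remove the trend within each library, an alternative added after the data were seen, all 27 genes still passed, among 44 in all (12 higher and 32 lower). The medians of the type I interferon, MHC class I and G2 and mitosis lists were then -0.40, -0.07 and 0.11.

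**Figure D5:**
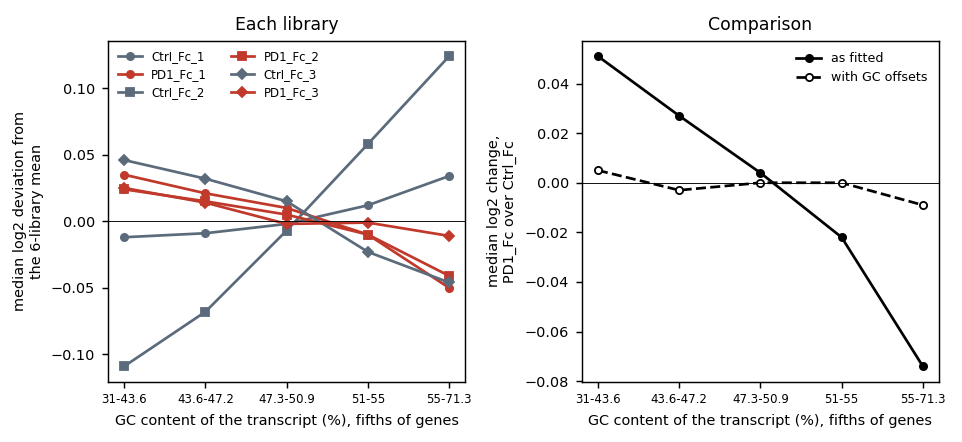
Median log2 deviation from the 6-library mean by bin of transcript GC content, 5 bins of equal number, for each library (left), and median log2 change of PD1_Fc over Ctrl_Fc by bin as fitted and with GC offsets (right). The steepest line belongs to Ctrl_Fc_2, from -0.109 to 0.124, and the trend of the comparison, from 0.051 to -0.074, is flat once offsets are applied.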

How the data were processed

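The values are whole-number read counts for each gene, as the authors deposited them. The submitters' processing notes name STAR, HTSeq and mm10, while versions, strand setting and library kit are not given in the sources used here. RNA was taken with an RNeasy kit, per the labels. Rows that name no gene were left out of totals and give the shares of reads not aligned. The 3 PD1_Fc and 3 Ctrl_Fc libraries were fitted alone with edgeR 4.0.16 in R 4.3.3 (TMM factors, default filter, robust quasi-likelihood tests, Benjamini-Hochberg adjustment over 10682 genes), because they stand apart from the other 6 bulk libraries. DESeq2 1.42.0, other scalings and filters, all 12 libraries and single omissions were alternatives. The calling step was tested on simulated data. CPM is counts per 1000000 gene counts.

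Genes named are the 4 of the PD-1 axis, those past the threshold without overlap at 5 CPM or more (up to 15 a side, and up to 10 with the next smallest p), up to 3 a list by p, and 6 picked from earlier results. Other members, such as lineage factors and markers, were added after their values were seen. Members and lists were chosen with earlier results of these data known. Gene types, positions and GC come from GENCODE M21 on GRCm38, with 46467 of 48397 symbols matched, and promoters from RefSeq. The other libraries enter only as a reference level, and the single-cell files were not analysed here. Chi-square per degree of freedom between libraries of a group ran from 1.55 to 4.14, so none was a copy of another. These values cannot show whether the libraries came from separate animals or cultures. Results on some genes are not reported here.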

Additional observations from a re-analysis of the deposited data

How the results depend on the processing

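The 27 calls (6 higher, 21 lower) became 7 (1 and 6) with DESeq2, where 13 of the 27 genes have no adjusted p, and 7 (1 and 6) in the fit on all 12 bulk libraries, which shared 5. Other scalings gave 23 to 30. Without a filter there were 48 (8 and 40), and among protein-coding genes alone 19 (6 and 13), where fewer genes were tested. GC offsets gave 44 (12 and 32). Single omissions gave 2 to 138 calls, 0 to 44 higher and 2 to 94 lower. Leaving out Ctrl_Fc_3 and PD1_Fc_1 together gave 34 (5 and 29), of which 16 are among the 27. Apart from the filter settings, the cause of these differences was not tested. With the replicate number as a block there were 44 calls (6 and 38), all 27 included. Same-numbered libraries correlated at -0.114, 0.06 and -0.136 in their deviations. With 3 libraries in a group, these values cannot settle whether the numbers pair them. Of 386 alternative values of named genes 0 reversed a called direction, 125 lost the call and 7 gained one, and of 780 list medians 116 moved beyond their spread. Depth limits genes under about 5 CPM, where Cd274 lies. Pdcd1 had no count, which allows up to 0.25 CPM in pooled Ctrl_Fc and 0.211 CPM in pooled PD1_Fc. Whether depth or the origin of the reads accounts for its absence was not tested.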

Other observations

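No gene passed in the groups that follow. Of 23 DNA repair genes at 5 CPM or more 16 were higher in PD1_Fc, with a median log2 difference of 0.07, and Xrcc6, which encodes a subunit of the Ku complex, was at 318, 293 and 308 CPM in Ctrl_Fc and 349, 344 and 359 CPM in PD1_Fc (0.19, edgeR adjusted p = 0.184). RNA splicing genes were higher in 20 of 27, with a median of 0.03. With GC offsets 11 were higher and 16 lower, with a median of -0.004. The list had the lowest median GC of those with 20 or more members, 42.9%. Citric acid cycle genes were higher in 17 of 23 (median 0.04) and fatty acid genes in 13 of 18 (0.09), while glycolysis genes split 9 to 8. Of 29 JAK-STAT genes 19 were lower, with a median of -0.04. Stat5a, which carries interleukin-2 signals, was at 221, 215 and 219 CPM and 187, 189 and 191 CPM (-0.21, edgeR adjusted p = 0.207). Bcl2l1, which encodes the survival protein BCL-XL, was at 257, 251 and 257 CPM and 211, 225 and 217 CPM, without overlap (-0.23, edgeR adjusted p = 0.0984).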
